A study of Homo sapiens with 18 samples.

Results

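Levels of 10 p53 target genes were followed in MDA-MB-231 cells, a human triple-negative breast carcinoma line, under epirubicin, paclitaxel and low oxygen. The genes were CDKN1A, MDM2, BTG2, GADD45A, SESN1, ZMAT3, FDXR, DDB2, XPC and RRM2B, taken as a list of well-known targets, and a probe set counted for a gene when the platform's gene table annotated it to that symbol alone. In the gene table, 8 of the 10 had such a probe set, 21 in all among the 54613 non-control probe sets of the Affymetrix HG-U133 Plus 2.0 array. BTG2 and FDXR had none and were not analysed here.

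The cells were incubated for 16 hours in 6 conditions of 2 arrays each, 12 arrays with an agreed label: 10 µM epirubicin in normoxia (N epi) or in hypoxia at 1% oxygen (H epi), 50 µM paclitaxel in normoxia (N tax) or hypoxia (H tax), and no drug in hypoxia (H) or normoxia (N). Epirubicin is an anthracycline that traps topoisomerase II on DNA, and paclitaxel stabilises microtubules. A further 6 arrays, labelled as the third replicate of a condition, carried a title and a source name that disagreed on the drug, and they entered no main comparison. The study's methods call the arrays of a condition biological replicates, although the labels name no separate cultures, and p-values measured the spread between these arrays. With 2 arrays per condition, the number of arrays limited the precision of every value.

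The p53 protein is a transcription factor that is stabilised after DNA damage and other stress, and it binds paired half-sites in the DNA of its targets. The targets form an arrest arm (CDKN1A, GADD45A, BTG2, SESN1), a feedback arm (MDM2, whose protein marks p53 for degradation) and a repair and nucleotide supply arm (DDB2, XPC, RRM2B), and ZMAT3 encodes an RNA-binding zinc finger protein. Most of these genes are also under other control.

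Between 41.4 and 42.6% of probe sets were above the presence threshold on each array, set at 3.14 on the log2 scale, and the median of the tested probe sets was 6.73 to 7.17 on the 4 epirubicin arrays, against 7.36 to 7.46 on the other 8. The 2 N epi arrays correlated at r = 0.989 across probe sets, the lowest of the 6 pairs, and replicate 2 lay between replicate 1 and the controls for many genes below. The difference between the 3′ and the 5′ control probe set of ACTB was -0.31 to -0.21 log2 on epirubicin arrays, against -0.04 to 0.32 on the others, while for GAPDH the ranges overlapped. All 6 of the listed markers of the line, such as VIM and CD44, were present on all 12 arrays at 11.8 to 15.7. Of markers listed as absent, PGR and CDH1 were below the threshold on every array, but EPCAM was above it on all 12, and the summed linear signal of that list was 216 to 274 with epirubicin, 78.9 to 96.6 with paclitaxel and 115 to 157 without drug. Of 9 markers of other cell types, 7 were below the threshold on every array and PECAM1 and COL1A1 were above it on all 12. The part of these shifts in the results below was not tested.

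Among the reference promoters, the sequences that bear a p53 half-site (named by its name alone) are shown because they are where the letters of a p53 site could be read for the listed genes. RefSeq windows (GRCh38.p14, 250 bases before to 50 after each start) were found for 8 of the 10 genes, 16 windows in all, with several starts for some genes. A half-site was matched on both strands in 3 of the 16 windows, and in 6.63% of the 35116 windows in the table. In the windows below, capitals mark the half-site, written 5′ to 3′ on the gene's strand. In the DDB2 window at its second listed start (chr11:47214724-47215023, plus strand), 2 half-sites stood 1 base apart, the first at position 6 after the start, and a pair at most 13 bases apart occurred in 0.0285% of all windows, 10 in number. The SESN1 window at the third listed start (chr6:109008939-109009238, minus strand) held 1 half-site at position -49, and the FDXR window at its first start (chr17:74872945-74873244, minus strand) held 1 at -11.
DDB2: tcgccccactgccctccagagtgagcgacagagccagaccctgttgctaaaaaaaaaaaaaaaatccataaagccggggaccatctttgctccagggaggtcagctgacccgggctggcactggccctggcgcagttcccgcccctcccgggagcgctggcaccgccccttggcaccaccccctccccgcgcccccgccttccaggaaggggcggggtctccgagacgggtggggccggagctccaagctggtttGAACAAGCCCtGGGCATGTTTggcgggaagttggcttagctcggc
SESN1: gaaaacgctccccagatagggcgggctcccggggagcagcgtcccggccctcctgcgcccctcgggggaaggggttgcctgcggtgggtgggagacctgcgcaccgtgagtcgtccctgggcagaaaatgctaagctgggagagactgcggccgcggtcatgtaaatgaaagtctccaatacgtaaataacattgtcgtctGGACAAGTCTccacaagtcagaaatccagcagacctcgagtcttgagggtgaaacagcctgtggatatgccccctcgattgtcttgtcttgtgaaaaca
FDXR: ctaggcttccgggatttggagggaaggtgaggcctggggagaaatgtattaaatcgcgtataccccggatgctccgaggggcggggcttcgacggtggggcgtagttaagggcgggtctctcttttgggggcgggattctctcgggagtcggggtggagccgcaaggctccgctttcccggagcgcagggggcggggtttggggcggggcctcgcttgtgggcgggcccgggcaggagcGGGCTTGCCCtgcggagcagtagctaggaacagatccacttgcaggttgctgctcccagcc
The core of the hypoxia response element, ACGTG on either strand, was in the windows of 2 of the genes, MDM2 and XPC, and in 21.4% of all windows. A match is a description of the letters only.

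Across the 8 measured genes the called changes went in both directions with each drug, and oxygen alone moved none past the threshold. With epirubicin, MDM2, SESN1, and in hypoxia also CDKN1A and XPC, were called lower and ZMAT3 was called higher. Called or not, every gene but ZMAT3 had a mean below control in H epi, and every gene but ZMAT3 and DDB2 did in N epi. With paclitaxel, CDKN1A was higher in both oxygen levels, GADD45A was higher in hypoxia, and ZMAT3 and DDB2 were lower. Calls came from limma fitted to all 12 arrays, with adjusted p under 0.05 by Benjamini-Hochberg over 24151 probe sets, and each gene was represented by its tested probe set of highest mean signal. When the 6 arrays with conflicting labels were added by their titles, 5 of the 8 genes were called in N epi, 7 in H epi, 5 in H tax and 4 in N tax against their controls. The share of all genes called was not taken for this placement, so these counts have no background. When the arrays were added by their source names, 0 of the 8 were called in each of these comparisons. No gene with a tested probe set was called in them either, so this 0 is not a result about the 8 genes.

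**Figure D1:**
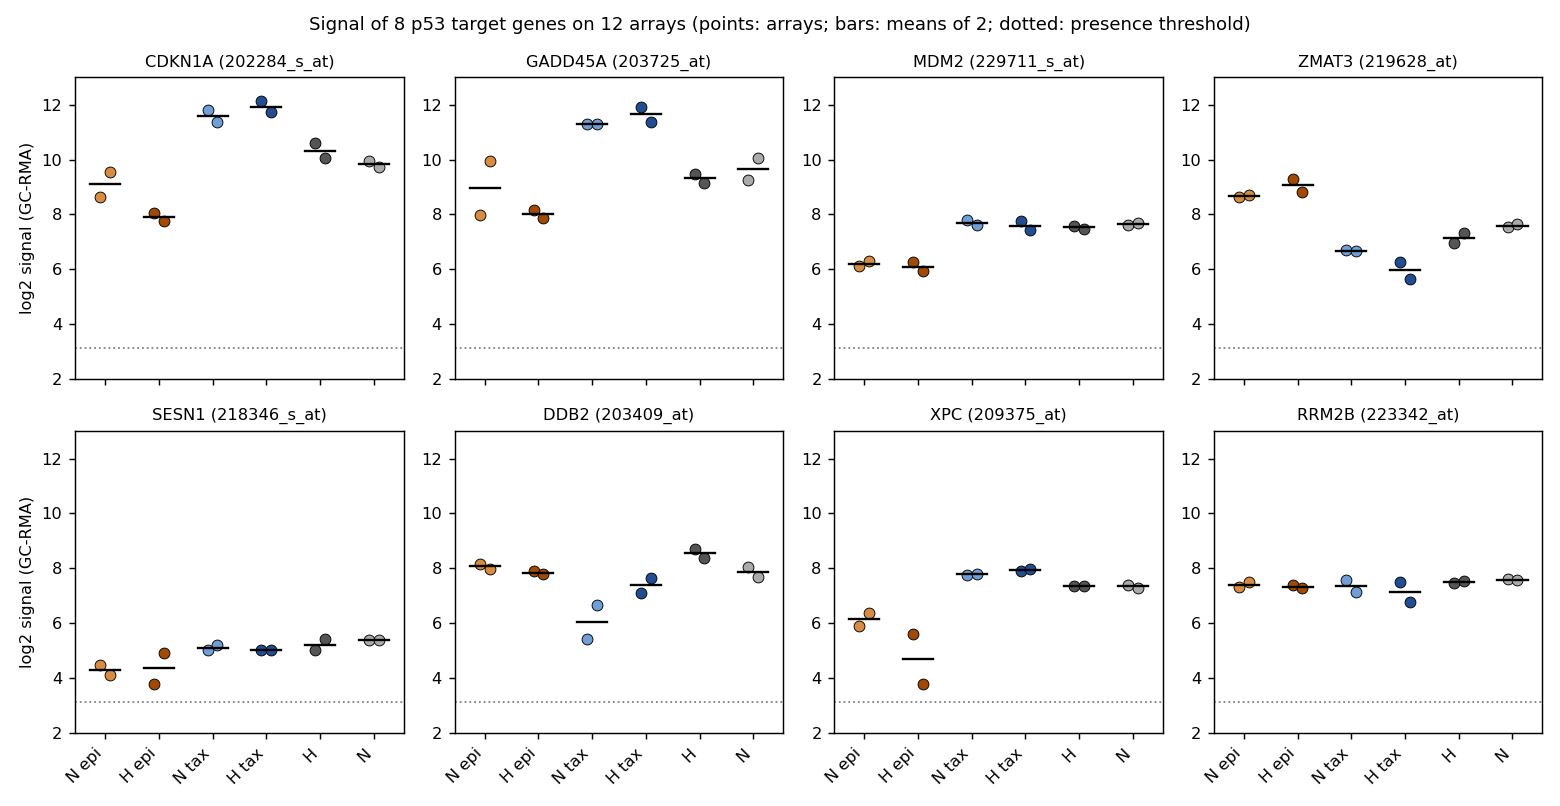
Log2 GC-RMA signal of the representative probe set of each of the 8 measured genes (y axis) in the 6 conditions (x axis); points are the 12 arrays, bars the means of 2, and the dotted line the presence threshold of 3.14. CDKN1A and GADD45A lie highest on the 4 paclitaxel arrays, ZMAT3 lies highest on the 4 epirubicin arrays, and RRM2B stays between 6.78 and 7.61.

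In N epi against N, 1 of the 8 genes was called higher, where 24.2% of 11197 tested genes were, and 2 were called lower, where 30.8% were. In H epi against H, 1 was higher against a background of 29.5%, and 4 were lower against 36.2%. Their median change was -0.72 in N epi and -1.07 in H epi, beside -0.01 and -0.03 over all genes. In N tax against N, 1 was higher (background 8.94%) and 2 were lower (15%), and in H tax against H, 2 were higher (13.3%) and 2 lower (18.2%), with medians of -0.08 and -0.07 beside -0.03 and -0.01. With so many genes called, counts of this size among 8 genes are near the background, so what follows is about the single genes. After each array was centred on its median, the median change of all genes moved to 0.39 in N epi against N and 0.51 in H epi against H, and the higher share of called genes moved to 66.1% and 66.0% after centring, against 44.0% and 44.9% on the deposited values. No called change of the 8 genes turned round after median centring or quantile normalization, although both SESN1 calls were lost.

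CDKN1A encodes the cyclin-dependent kinase inhibitor p21. Its signal was 8.64 and 9.56 log2 in N epi, 8.06 and 7.75 in H epi, 11.80 and 11.36 in N tax and 12.11 and 11.74 in H tax, against 10.59 and 10.06 in H and 9.95 and 9.74 in N. All 4 paclitaxel arrays were above all control arrays, and all 4 epirubicin arrays were below them. With paclitaxel it was 3.32-fold higher in normoxia (log2 change 1.73 ± 0.32, SE; adjusted p = 0.00683 by limma) and 3.04-fold higher in hypoxia (1.60 ± 0.32; limma adjusted p = 0.00684). With epirubicin it was 5.34-fold lower in hypoxia (-2.42 ± 0.32; limma adjusted p = 0.000286). In N epi it did not pass, at -0.74 with a 95% interval of -1.48 to -0.00 (limma adjusted p = 0.085), and without N epi replicate 2 the change was -1.20 (limma adjusted p = 0.0118). The paclitaxel calls narrowly failed without N tax replicate 1 (1.51, limma adjusted p = 0.0514) and without H replicate 2 (1.33, limma adjusted p = 0.0532).

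GADD45A encodes a stress-induced protein that slows the cycle at G2 and takes part in repair. Its signal was 7.96 and 9.94 log2 in N epi, 8.17 and 7.88 in H epi, 11.30 and 11.30 in N tax and 11.93 and 11.36 in H tax, against 9.47 and 9.15 in H and 9.26 and 10.04 in N. The 4 paclitaxel arrays again stood above all controls, while the 2 N epi arrays lay on either side of H and overlapped N. The change with paclitaxel passed in hypoxia (2.33 ± 0.56, 5.02-fold; limma adjusted p = 0.0145) and missed the threshold in normoxia (1.65 ± 0.56; limma adjusted p = 0.0662). Without N epi replicate 2, whose removal narrows the shared spread, the normoxia change of 1.65 passed (limma adjusted p = 0.00606) and the N epi change was -1.69 (limma adjusted p = 0.00567). The H epi change of -1.29 passed without either N epi array (limma adjusted p = 0.00525 in each case). The hypoxia call failed without H tax replicate 1 (2.04), H replicate 1 (2.49) or H replicate 2 (2.17), at limma adjusted p = 0.0832, 0.0534 and 0.0825.

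MDM2 encodes the ubiquitin ligase of p53 and is itself a p53 target. Its probe set 229711_s_at had 6.11 and 6.31 log2 in N epi, 6.27 and 5.93 in H epi, 7.81 and 7.60 in N tax and 7.76 and 7.42 in H tax, against 7.59 and 7.47 in H and 7.62 and 7.67 in N. The epirubicin arrays were apart from all 8 others, whereas paclitaxel and control arrays overlapped. On this probe set MDM2 was 2.71-fold lower in N epi (-1.44 ± 0.17; limma adjusted p = 0.00032) and 2.68-fold lower in H epi (-1.42 ± 0.17; limma adjusted p = 0.000148). The change with paclitaxel on this probe set was 0.06 in normoxia (95% interval -0.33 to 0.44) and 0.06 in hypoxia (-0.32 to 0.45). Probe set 225160_x_at differed from it in normoxia, at 0.73 (95% interval 0.006 to 1.46), which was not called (limma adjusted p = 0.138). Its N tax arrays lay above both N arrays, and its change in hypoxia was 4.24e-05. Probe set 244616_x_at changed by 0.006 in normoxia and 0.22 in hypoxia. Of 10 MDM2 probe sets, 7 were never above the presence threshold, and the 3 tested did not move alike. Probe set 225160_x_at changed by -0.79 in N epi and -0.66 in H epi and missed the threshold (limma adjusted p = 0.0655 and 0.0998), and 244616_x_at changed by 0.16 and 0.61 (limma adjusted p = 0.751 and 0.173). Only 229711_s_at passed the test against controls, and the epirubicin arrays of 225160_x_at also lay below their controls.

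ZMAT3, also called Wig-1, moved the other way from MDM2. Its signal at 219628_at was 8.65 and 8.71 log2 in N epi, 9.31 and 8.83 in H epi, 6.69 and 6.68 in N tax and 6.27 and 5.67 in H tax, against 6.97 and 7.34 in H and 7.54 and 7.64 in N. The epirubicin arrays were above and the paclitaxel arrays below all 4 control arrays. It was 2.13-fold higher in N epi (1.09 ± 0.23; limma adjusted p = 0.00458) and 3.78-fold higher in H epi (1.92 ± 0.23; limma adjusted p = 0.00016). It was 1.87-fold lower in N tax (-0.91 ± 0.23; limma adjusted p = 0.0236) and 2.27-fold lower in H tax (-1.19 ± 0.23; limma adjusted p = 0.00563). All 5 ZMAT3 probe sets were tested, and the signs of their changes were the same in these 4 comparisons. The paclitaxel and control arrays of 1555609_a_at were all below the presence threshold, so it passed the filter only through its epirubicin arrays. Its epirubicin signs are thus no separate support. Its paclitaxel signs (-0.36 in N tax and -0.14 in H tax) are thus differences under that threshold. At 225725_at the 4 changes were 1.69, 2.52, -1.25 and -1.15, each called. At 1555609_a_at the control arrays were below the presence threshold, so the difference was a bound, the mean of the epirubicin arrays against the threshold. N epi was at least 1.86-fold above N, and H epi was at least 2.38-fold above H. No p-value is given for these bounds, because the filter kept this probe set for its epirubicin signal. At 227221_at the paclitaxel changes of -2.02 and -1.91 were called and the epirubicin changes of 0.29 and 0.96 were not, and at 228315_at N epi (0.97) and H tax (-1.44) were called. The N tax call at 219628_at failed without either N tax array or either N array, at changes of -0.96 to -0.85.

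**Figure D2:**
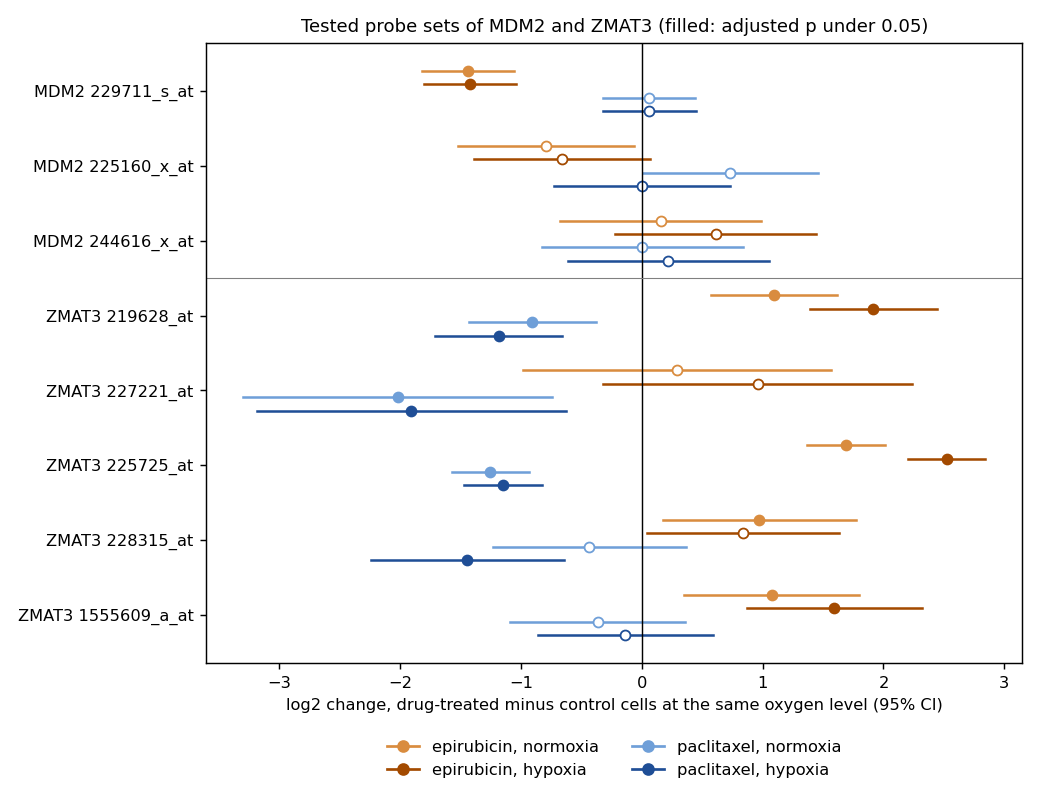
Log2 change of each tested probe set of MDM2 (3) and ZMAT3 (5), drug-treated minus control cells at the same oxygen level (x axis), with 95% intervals; filled points passed adjusted p under 0.05. The ZMAT3 probe sets lie right of 0 with epirubicin and left of 0 with paclitaxel, while the MDM2 fall with epirubicin is largest at 229711_s_at. The paclitaxel and control arrays of ZMAT3 1555609_a_at were below the presence threshold, so it was tested only through its epirubicin arrays.

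XPC encodes the protein that recognises bulky lesions for nucleotide excision repair. Its signal was 5.91 and 6.38 log2 in N epi, 5.60 and 3.80 in H epi, 7.75 and 7.81 in N tax and 7.91 and 7.99 in H tax, against 7.36 and 7.34 in H and 7.41 and 7.28 in N. The 4 epirubicin arrays were lowest, the 2 H epi arrays were far apart, and the paclitaxel arrays lay above all control arrays. The paclitaxel changes of 0.43 in N tax and 0.60 in H tax were not called (limma adjusted p = 0.581 and 0.398). With only the compared conditions fitted, both passed (limma adjusted p = 0.0402 and 0.0265). The change was -2.65 ± 0.47 in H epi against H (6.27-fold lower; limma adjusted p = 0.00126) and -1.20 ± 0.47 in N epi against N, which missed the threshold (limma adjusted p = 0.0589). Without H epi replicate 1 or H epi replicate 2 the N epi change of -1.20 passed (limma adjusted p = 0.000910 in each case), and without H epi replicate 2 the H epi change was -1.75 (limma adjusted p = 0.000398).

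DDB2 encodes the subunit that binds ultraviolet lesions in the same repair pathway, and its second listed start holds the half-site pair shown above. Its signal was 8.18 and 7.98 log2 in N epi, 7.90 and 7.78 in H epi, 5.44 and 6.68 in N tax and 7.11 and 7.66 in H tax, against 8.71 and 8.38 in H and 8.07 and 7.67 in N. The N tax arrays were the lowest of the 12, and both H tax arrays also lay below all 4 control arrays. DDB2 was 3.51-fold lower in N tax (-1.81 ± 0.37; limma adjusted p = 0.0104) and 2.23-fold lower in H tax (-1.16 ± 0.37; limma adjusted p = 0.047). The N tax call failed without N replicate 1 (-1.61, limma adjusted p = 0.0782). The H tax call failed under 10 of the 12 removals of 1 array and under the block on replicate number, and its change without H tax replicate 1 was -0.89. With epirubicin DDB2 changed by 0.21 in normoxia and -0.70 in hypoxia, neither called.

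SESN1 encodes a sestrin that restrains growth signalling under stress. It was the weakest signal of the 8, at 4.49 and 4.11 log2 in N epi, 3.78 and 4.93 in H epi, 5.02 and 5.20 in N tax and 5.02 and 5.02 in H tax, against 5.02 and 5.41 in H and 5.38 and 5.38 in N. The epirubicin arrays were the 4 lowest, by a small margin for H epi replicate 2. The same value, 5.0189, recurred on N tax replicate 1, both H tax arrays and H replicate 1, so these may not be separate readings. Changes were -1.07 ± 0.33 in N epi (limma adjusted p = 0.0239) and -0.86 ± 0.33 in H epi (limma adjusted p = 0.0475). Without H epi replicate 1 the H epi change was -0.28 (limma adjusted p = 0.293), and without N epi replicate 2 the N epi change was -0.89 (limma adjusted p = 0.105). The N epi call also failed without either N array, and the H epi call failed under 11 of the 12 removals.

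RRM2B encodes the p53-inducible small subunit of ribonucleotide reductase. It ranged over 6.78 to 7.61 log2 on the 12 arrays, with 7.33 and 7.49 in N epi, 7.38 and 7.28 in H epi, 7.59 and 7.14 in N tax and 7.50 and 6.78 in H tax, against 7.48 and 7.55 in H and 7.61 and 7.56 in N. No comparison was called, and its 95% intervals reached from -0.71 to 0.36 in N epi and from -0.91 to 0.16 in H tax. In H tax against H it passed without H tax replicate 1 (-0.74, limma adjusted p = 0.0334) and with the conflicting arrays added by title (-0.46, limma adjusted p = 0.0386). In H tax against H epi it passed without H tax replicate 1 (-0.55), under quantile normalization (-0.63) and under median centring (-0.69).

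**Figure D3:**
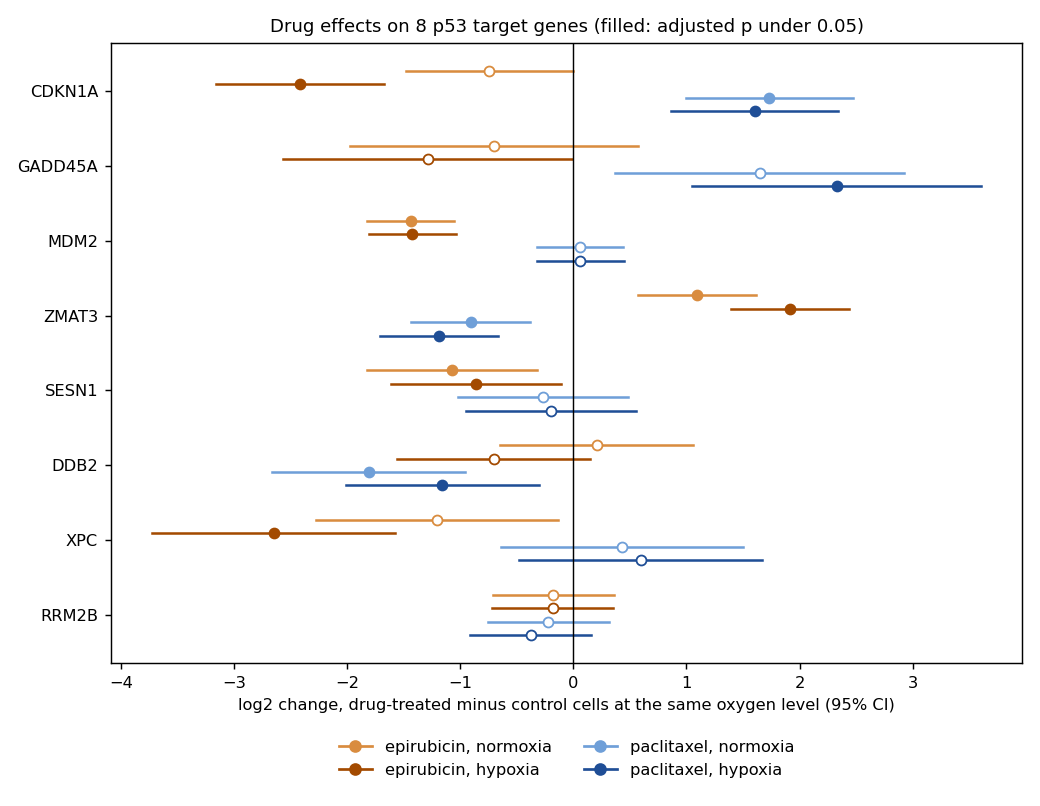
Log2 change of the 8 genes with each drug, drug-treated minus control cells at the same oxygen level (x axis), with 95% intervals; filled points passed adjusted p under 0.05. CDKN1A reaches 1.73 with paclitaxel in normoxia and -2.42 with epirubicin in hypoxia, ZMAT3 has the opposite signs, and RRM2B has no filled point.

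The 2 drugs were also compared directly, a comparison added after the values were seen. In N tax against N epi, 4 of the 8 genes were higher and 2 lower, and in H tax against H epi 4 were higher and 1 lower, where 64% and 70.2% of all genes were called in either direction. CDKN1A was 5.56-fold higher in N tax than in N epi (log2 2.47) and 16.2-fold higher in H tax than in H epi (4.02). GADD45A was 5.10-fold and 12.3-fold higher in the same comparisons, MDM2 2.82-fold and 2.80-fold, and XPC 3.11-fold and 9.49-fold. Without N epi replicate 1 the GADD45A difference between N tax and N epi was 1.36 log2 and without N epi replicate 2 it was 3.34, against 2.35 on all arrays, and with only these 2 conditions fitted it failed (limma adjusted p = 0.0846). The XPC call in N tax against N epi failed without N epi replicate 1, N tax replicate 1 or N tax replicate 2, at limma adjusted p = 0.0790, 0.0576 and 0.0632. ZMAT3 was 3.996-fold lower in N tax than in N epi and 8.59-fold lower in H tax than in H epi, and DDB2 was 4.05-fold lower in N tax than in N epi. These comparisons share arrays with those against the controls and add no separate evidence. Because drug-treated cultures were measured in bulk, fewer cells of a kind and less RNA per cell cannot be told apart.

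Low oxygen moved none of the 8 genes past the threshold, with or without a drug. In H against N, limma called 0 of 8, where 4.26% of all genes were higher and 5.75% lower, and 0 had an unadjusted p under 0.05. Between H tax and N tax 0 of 8 were called (background 0.982% higher and 0.268% lower), and 2 had an unadjusted p under 0.05, DDB2 and ZMAT3. Between H epi and N epi 0 of 8 were called (background 0.214% higher and 1.49% lower), and here the 2 were CDKN1A and XPC. The changes ran from -0.44 to 0.67 in H against N. For CDKN1A the change was 0.48 in H against N (95% interval -0.26 to 1.22), 0.35 in H tax against N tax and -1.20 in H epi against N epi (limma adjusted p = 0.117). DDB2 had 1.33 in H tax against N tax (limma adjusted p = 0.17) and XPC had -1.44 in H epi against N epi (limma adjusted p = 0.174). Leaving out 1 array brought some of these past it. Without N epi replicate 1, H epi against N epi called CDKN1A at -1.65 and GADD45A at -1.91 (limma adjusted p = 0.00935 and 0.0107), and without H epi replicate 1 it called XPC at -2.35 (limma adjusted p = 0.0039). Without N tax replicate 2, H tax against N tax called DDB2 at 1.95 (limma adjusted p = 0.0408).

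Whether oxygen changed a drug's effect was tested as an interaction. It called 0 of 8 genes with epirubicin (4.09% of all genes) and 0 of 8 with paclitaxel (0.107%), and at an unadjusted p under 0.05 the counts were 2 (CDKN1A and ZMAT3) and 0. The CDKN1A interaction with epirubicin was -1.67 ± 0.46 (limma adjusted p = 0.0856), and it was -2.13 without N epi replicate 1 (limma adjusted p = 0.0111). The XPC interaction was -1.44 ± 0.66, and -2.35 without H epi replicate 1 (limma adjusted p = 0.00632). The CDKN1A interaction also passed when the 6 arrays with conflicting labels were added by title (-1.42, limma adjusted p = 0.0188).

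A wider list of 14 arrest and feedback targets of p53, of which 12 were tested, was also examined. In N epi 0 were higher and 7 lower, where 24.2% and 30.8% of all genes were, and in H epi 0 were higher and 9 lower, where 29.5% and 36.2% were. The median changes of the 12 were -2.15 and -3.82, and CCNG1, TRIM22 and PLK3 passed in neither comparison. Like the other lists here, it was chosen with earlier results of these data known. PPM1D, the phosphatase that ends p53 signalling, had 2.23 and 6.83 log2 in N epi, 2.23 and 3.22 in H epi, against 7.94 and 8.05 in H and 8.29 and 8.23 in N. PPM1D was called lower in both, but replicate 1 of N epi and replicate 1 of H epi were below the presence threshold, so no size is given for its change. Its N epi call failed without either N array (limma adjusted p = 0.0942 and 0.0917). TP53INP1, which promotes p53-driven death, changed by -3.09 and -4.08, and BTG1, an antiproliferative relative of BTG2, had 7.01 and 11.40 in N epi, 6.80 and 6.55 in H epi, against 12.71 and 12.46 in H and 11.92 and 12.14 in N. BTG1 was called in H epi (-5.91) and not in N epi (-2.83, limma adjusted p = 0.0573). IER5, an immediate early gene, changed by -3.05 in N epi and -5.88 in H epi. The N epi change of IER5 was -1.15 without N epi replicate 1 and -4.95 without N epi replicate 2, and its call failed without either N array (limma adjusted p = 0.0937 and 0.0902). Under median centring the counts were 1 higher and 8 lower in N epi, with 1 higher and 9 lower in H epi. The share of all genes called was not taken under median centring, so these counts have no background. On the deposited values, fewer genes of the list were called in N epi when either N array was left out.

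With paclitaxel the same list had 2 higher and 1 lower in N tax, where 8.94% and 15% of all genes were. In H tax it also had 2 higher and 1 lower, where 13.3% and 18.2% of all genes were. The medians of the list were 0.43 (N tax) and 0.17 (H tax). SESN2, a sestrin like SESN1 that is also induced by amino acid and endoplasmic reticulum stress, had 10.50 and 10.25 log2 in N tax and 10.87 and 10.55 in H tax, against 7.75 and 6.57 in H and 6.96 and 7.21 in N. All paclitaxel arrays were above all control arrays for SESN2, and its changes were 3.29 ± 0.90 and 3.55 ± 0.90 (limma adjusted p = 0.032 and 0.0187). SFN, which encodes the arrest protein stratifin, was lower by a small margin, at -0.45 in both N tax and H tax, and TRIM22 (0.88 in N tax) and PLK3 (1.07 in H tax) were higher. TRIM22 and PLK3 were low signals with a value repeated on several arrays, 3.89836 for TRIM22 and 4.08247 for PLK3. Which genes of the list passed changed when 1 array was left out, and in some of these fits no call remained in N tax or in H tax. The share of all genes called was not taken for these fits.

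**Figure D4:**
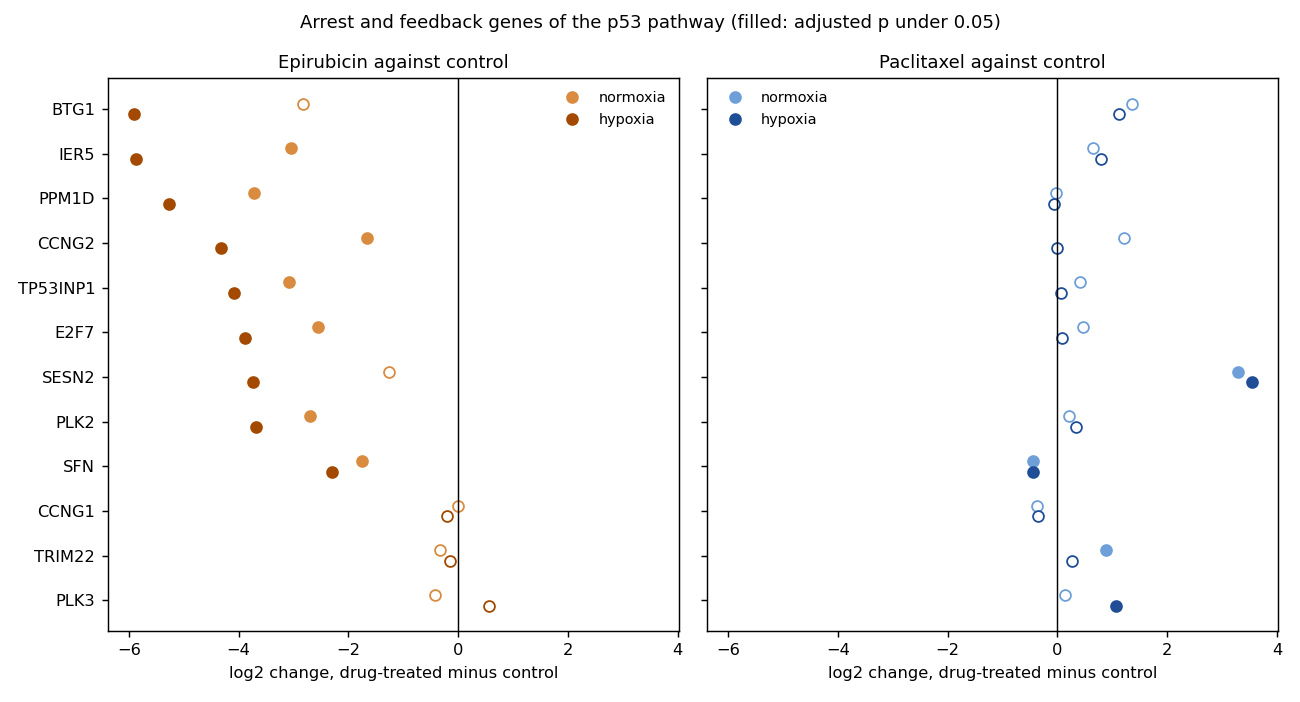
Log2 change of the 12 tested arrest and feedback genes with epirubicin (left) and paclitaxel (right), drug-treated minus control cells at the same oxygen level (x axis); filled points passed adjusted p under 0.05. With epirubicin 7 genes in normoxia and 9 in hypoxia are filled on the left of 0, and with paclitaxel SESN2 lies farthest to the right.

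Of 14 tested apoptosis targets, 2 were higher and 5 lower in N epi, 2 and 3 in H epi, 3 and 1 in N tax, and 5 and 2 in H tax. Over all genes 24.2% were higher and 30.8% lower in N epi, while H epi had 29.5% higher and 36.2% lower, and the epirubicin counts were near or under these shares. For paclitaxel the all-gene shares were 8.94% higher and 15% lower in N tax, while H tax had 13.3% higher and 18.2% lower. PMAIP1, which encodes the pro-death protein NOXA, rose by 2.49 in N tax and 2.48 in H tax (limma adjusted p = 0.00044 and 0.000256). FAS, the death receptor, was lower in N epi (-1.44) and H epi (-1.91) and higher in N tax (1.14) and H tax (0.85). TNFRSF10D, a decoy receptor for the death ligand TRAIL, was higher in N epi (1.51) and lower in N tax (-1.15) and H tax (-1.95). BBC3 was not analysed here.

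Of 29 tested targets in repair, metabolism and secreted signals, 5 were higher and 10 lower in N epi, 8 and 11 in H epi, 2 and 6 in N tax, and 5 and 7 in H tax. These counts were near the all-gene shares just given. SCO2, a cytochrome oxidase assembly factor, changed by -3.25 in N epi and -4.89 in H epi, and the decapping subunit DCP1B by -2.76 and -3.96. GDF15, a secreted stress cytokine, rose by 4.78 ± 1.29 in H tax (limma adjusted p = 0.0243), a call that failed without any 1 of the H tax and H arrays (4.51 to 5.06). TIGAR, which lowers glycolytic flux, was lower in H against N (-1.50).

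Of 13 tested regulators of p53, 0 were higher and 7 lower in N epi, while H epi had 0 higher and 5 lower, N tax had 2 higher and 3 lower and H tax 2 and 1. The share of all genes called lower was 30.8% in N epi and 36.2% in H epi, which the 5 of 13 in H epi were near, and the all-gene shares with paclitaxel were those given for the apoptosis targets. The coactivators CREBBP (-2.86 in N epi and -4.42 in H epi) and EP300 (-2.39 and -3.33) and the damage-site adaptor TP53BP1 (-1.79 and -2.19) were lower with epirubicin. Without N epi replicate 1 the N epi changes of CREBBP and EP300 were -1.19 and -1.34, and without N epi replicate 2 that of CREBBP was -4.54. The N epi call of CREBBP failed without N replicate 1 (-2.89) or N replicate 2 (-2.84), and that of EP300 failed without N replicate 2 (-2.14). MDM4, the partner of MDM2 in p53 restraint, was lower in N epi (-0.71, limma adjusted p = 0.00286) and H epi (-0.35, limma adjusted p = 0.0499) and higher with paclitaxel, by 0.61 in N tax and 0.83 in H tax. The H epi call of MDM4 failed under 9 of the 12 removals of 1 array, at -0.37 to -0.25, and its N tax call failed without N replicate 1 or either N tax array, at 0.46 to 0.65. The checkpoint kinase CHEK2 was higher in N tax (1.41) and H tax (1.33). ATM, the kinase that starts the response to double-strand breaks, passed in no comparison, with -0.40 in N epi and -0.80 in H epi. TP73 was below the filter, and TP63 was not analysed here.

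Among 17 tested paralogs and partners of the 10 genes, 6 were higher and 2 lower in N epi, 6 and 7 in H epi, 1 and 4 in N tax and 1 and 4 in H tax. In H epi the counts were near the all-gene shares of 29.5% higher and 36.2% lower, and in N epi those shares were 24.2% and 30.8%. With paclitaxel the all-gene shares were 8.94% higher and 15% lower in N tax, and 13.3% and 18.2% in H tax. CDKN1B, which encodes p27 and is a paralog of CDKN1A, changed by -2.87 ± 0.87 in N epi and -6.15 ± 0.87 in H epi, and CDKN1C, the remaining member of this family, by -2.74 in H epi. The N epi change of CDKN1B was -1.14 without N epi replicate 1 and -4.59 without N epi replicate 2, and its call failed without either N array (limma adjusted p = 0.0838 and 0.0902). RRM2, the S-phase counterpart of RRM2B, changed by -1.61 in N tax and -1.85 in H tax, with its partner RRM1 at -0.94 and -1.26. PCNA, the sliding clamp that p21 binds, changed by -1.20 in N tax and -1.56 in H tax. RRM2B itself was not called in either comparison.

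Over the 12 arrays, the genes whose centred log2 values lay closest to those of CDKN1A were OSBP, SLC6A13, UBALD2, CEBPG and SLFN5, with root mean square differences of 0.27 to 0.32, against a median of 1.44 over 11196 genes. Those closest to MDM2 were IDH1, ZNF234, PDCD7, SON and BIRC6, at 0.11 to 0.12 against a median of 0.83. These are descriptions over arrays that share their conditions.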

How the data were processed

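Whole-genome Affymetrix arrays measured the RNA of MDA-MB-231 cells. The deposited values are log2 signals that the authors computed with GC-RMA, whose version is not given in the sources used here, and that range from 2.23 to 16.6. No further scaling was applied here. GC-RMA corrects background and equalises arrays, so a shift shared by most genes can be lost. Testing required a linear signal over 8.84 on each array of some condition, and 24151 of 54613 probe sets passed. Symbols came from the platform annotation, updated through gene IDs, with 41097 probe sets naming 1 gene, 1801 several and 11777 not listed.

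Changes were tested with limma 3.58.1 (R 4.3.3), a means model over 6 conditions with 6 residual degrees of freedom, two-sided, Benjamini-Hochberg adjusted over all tested probe sets. The model was tested on simulated data. The deposited columns of the 6 arrays with conflicting labels were used only in alternatives.

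The 10 genes, the wider gene lists and the rules were chosen with earlier results of these data known. From each wider list and comparison, up to 4 genes were named, those with the largest change among called genes whose arrays did not overlap, plus MDM4, ATM, CHEK2 and TP73. Some genes of the lists are not reported here. The study describes independent experiments, but no label ties a replicate number to one. Deviations of same-numbered arrays correlated at -0.18 to 0.30 over 15 pairs of conditions, 3 of them over 0.1, so the number was a block only in an alternative. Alternatives were 22 in number: other label assignments, leaving out each array, a replicate block, presence filters, quantile normalization, median centring, a trended robust prior, separate fits and another probe set per gene.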

Additional observations from a re-analysis of the deposited data

How the results depend on the processing

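Of the 26 called changes of the 8 genes, each kept its direction under the 22 alternatives except 4, all when the 6 arrays with conflicting labels were placed by source name: with N tax CDKN1A changed by -0.054 and ZMAT3 by 0.30, and with H tax they changed by -0.32 and 0.15. With that placement 0 of the 8 genes and 0 of the arrest and feedback genes were called in any of the 4 comparisons of drug with control, and 0 of the 8 genes in the 2 comparisons of the drugs with each other. No other tested gene was called in these comparisons, so these counts are not a result about the listed genes. With the same arrays placed by title, 5 of the 8 were called in N epi against N, 1 in H tax against N tax, 2 in H epi against N epi and 1 in the epirubicin interaction, and 5 arrest and feedback genes in N tax against N. The cause was not tested. Leaving out 1 array gave 1 to 4 of the 8 in N tax against N and 1 to 4 in H tax against H, 0 to 1 in H tax against N tax, 0 to 2 in H epi against N epi and 0 to 1 in the epirubicin interaction. For arrest and feedback genes it gave 4 to 9 in N epi against N, 0 to 6 in N tax against N and 0 to 5 in H tax against H. With no presence filter, which adjusts over 54613 probe sets, 1 of the 8 was called in N tax against N and 2 in H tax against H, and 4 arrest and feedback genes in N epi against N and 1 in N tax against N. With only the compared conditions fitted, 3 arrest and feedback genes were called in N epi against N and 5 in N tax against N. The share of all genes called was not taken for the title placement, the left-out arrays, no presence filter or these separate fits. Those counts thus have no background and are not a result about the listed genes. Median centring moved the higher share of called genes in the drug comparisons to 36.9% in N tax against N epi and 35.4% in H tax against H epi, against 52.6% and 52.99% on the deposited values, and in the paclitaxel interaction to 14.3%, against 33.3%.

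With the replicate number as a block, DDB2 was no longer called in H tax against H, at -1.16 (limma adjusted p = 0.0632). The block changed no other call of the 8 genes. SESN1 kept its H epi call under 6 of the 22 alternatives and DDB2 its H tax call under 8, the least of the 26. With 2 arrays per condition, changes near the spread of N epi could not be called, and the MDM2 calls against control cells rest on 1 of its 3 probe sets.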

Other observations

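The 6 arrays whose labels disagreed had the following CDKN1A signals, each given with its title and then its source name. The array titled N epi and sourced N tax had 8.25 log2, and that titled H epi and sourced H tax had 7.86. The array titled N tax and sourced N had 11.88, and that titled H tax and sourced H had 12.02. The arrays titled H and N, sourced H epi and N epi, had 10.29 and 9.78. For GADD45A the same 6 arrays, in the same order, had 7.82, 7.90, 11.42, 11.24, 9.15 and 8.97 log2. At the probe sets that represent the 8 genes, 44 of the 48 signals of these arrays lay nearer to the mean of the condition in the title than to that of the condition in the source name, 6 of 6 for CDKN1A and 5 of 6 for GADD45A. The arrays were not assigned from these values.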
